A study of Mus musculus with 61 samples.

Results

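The signaling genes Rgs14, Rin1 and Ptk2b, the synaptic genes Nrgn, Nptx2 and Gda, and Crym, Ctxn1, Dtl and Rprml varied between fractions of the adult mouse brain. They were the 10 genes with the largest regional variation relative to the spread between paired fractions. The ranking covered 15520 genes that were detected and named by a RefSeq accession. They were picked by the moderated F statistic over 28 pairs of matched fractions, with the probe of the highest mean signal standing for each gene. F is the variance between the pairs divided by the variance between the 2 mice within pairs. It ran from 268 for Rgs14 to 141 for Rprml among the members, and the next genes were Kcnj4 and Kcnf1, both at 140. As these values chose the members, they carry no test here, and the differences along the brain axes below describe the same arrays.

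The brains came from 6 male C57BL/6J mice aged 8 weeks, untreated and without a transgene or deletion in the labels, perfused with an RNA preservative. Each brain was cut in a single plane, coronal (C with 13 fractions and Co with 16), sagittal (S with 9 and So with 10) or horizontal (H with 6 and Ho with 7). A fraction is a slab of 1 mm, collected as 200 sections of 5 µm, and its total RNA was hybridized to 1 one-color array. The cutting planes of Co, So and Ho were slightly oblique, so that mouse and cutting angle cannot be told apart within a plane. C and Co fractions were numbered from the caudal end to the olfactory end, H and Ho from dorsal to ventral, and S and So from the left side to the right. Values are log2 signals relative to the 75th percentile of the array, so 0 is that percentile. They can be set against each other between fractions for 1 gene, but not between genes. A fraction holds many cell types, and fewer cells that express a gene cannot be told apart from less of its RNA per cell.

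The members have several roles, many of them at excitatory synapses. Rgs14 is a regulator of G protein signaling that also binds Ras and Rap proteins and is known for its expression in hippocampal area CA2. Rin1 is a Ras effector and an exchange factor for Rab5, and Ptk2b encodes Pyk2, a tyrosine kinase activated by calcium. Nrgn encodes neurogranin, which binds calmodulin in dendritic spines, and Nptx2 encodes a secreted pentraxin that clusters AMPA receptors. Gda encodes guanine deaminase, also called cypin, which acts in purine breakdown and in dendrite growth. Crym encodes mu-crystallin, which binds thyroid hormone, and Dtl is a substrate receptor of a cullin ubiquitin ligase. Ctxn1 encodes cortexin, a small membrane protein of cortical neurons, and Rprml is a relative of the cell cycle gene Reprimo. Spiny neurons of the forebrain share much of this calcium and G protein signaling machinery, while the cerebellum and the hindbrain are built of other neuron classes.

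Upstream sequences of RefSeq gene starts on GRCm38.p6 were at hand for 6 members (Rin1, Dtl, Ctxn1, Nrgn, Gda and Rprml). Those of 4 members are shown because they span the range among the members: Rin1 and Ctxn1 had the most similar profiles, and Dtl and Rprml hold the rarest motif and the most motif copies found. Each is the 250 bases before the gene start, 5′ to 3′, with searched motifs in capitals (both strands).
Rin1: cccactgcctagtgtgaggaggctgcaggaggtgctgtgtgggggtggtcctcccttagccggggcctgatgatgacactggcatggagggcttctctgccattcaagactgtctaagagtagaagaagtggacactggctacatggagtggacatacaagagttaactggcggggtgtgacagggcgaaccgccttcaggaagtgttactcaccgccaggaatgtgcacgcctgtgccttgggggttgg
Ctxn1: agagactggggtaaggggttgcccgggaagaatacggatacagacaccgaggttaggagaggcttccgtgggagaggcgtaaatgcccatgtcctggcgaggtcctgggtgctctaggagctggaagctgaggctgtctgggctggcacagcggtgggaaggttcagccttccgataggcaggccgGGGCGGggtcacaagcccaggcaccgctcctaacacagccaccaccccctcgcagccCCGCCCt
Dtl: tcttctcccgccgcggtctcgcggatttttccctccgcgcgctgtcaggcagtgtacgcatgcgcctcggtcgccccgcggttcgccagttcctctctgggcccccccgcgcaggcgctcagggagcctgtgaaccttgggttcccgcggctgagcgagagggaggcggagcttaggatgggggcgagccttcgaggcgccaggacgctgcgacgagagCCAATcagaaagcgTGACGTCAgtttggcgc
Rprml: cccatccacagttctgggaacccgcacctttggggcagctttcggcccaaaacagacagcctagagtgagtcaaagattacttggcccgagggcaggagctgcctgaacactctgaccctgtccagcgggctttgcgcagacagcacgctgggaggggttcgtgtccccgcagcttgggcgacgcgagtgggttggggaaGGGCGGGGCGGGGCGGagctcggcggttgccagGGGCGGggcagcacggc
The windows lie at chr19:5050565-5050814, plus strand (Rin1), chr8:4259275-4259524, minus strand (Ctxn1), chr1:191575545-191575794, minus strand (Dtl) and chr11:103649259-103649508, plus strand (Rprml).

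Rin1 and Ctxn1, for all their likeness in expression, shared none of the 7 motifs searched, as the Rin1 window held no match. The GC box GGGCGG was found in 3 of the 6 member windows (Ctxn1, Nrgn and Rprml) and in 32.7% of 32851 windows of the same length. Rprml held it at 4 places, of which 3 overlap by a base. The CCAAT box was found in Dtl, Nrgn and Gda, and in 33.8% of all windows. Dtl held the full cAMP response element TGACGTCA at bases −17 to −10, a motif in 1.55% of windows, and Nrgn held the E-box CAGATG (14.4%). TATAAA (12.4% of windows), CAGCTG (13.0%) and the Egr motif GCGGGGGCG (2.57%) were in none of the 6. Matches describe letters in a window and not binding.

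Along the caudal to rostral axis, all 10 members were low in the caudal fractions, where hindbrain and cerebellar markers were high, and rose steeply in front of them. The caudal window is the 4 most caudal pairs (C1 to C4 and Co2 to Co5), and the rostral window is the pairs C7 to C12 with their partners Co8 to Co12 and Co14. Rostral values exceeded caudal values more than 2-fold in both mice for 10 of 10 members, against 4.86% of the 36573 detected probes. Rostral values all lay above caudal values for 10 of 10 members, against 6.25% of probes. The median difference of the members was 5.52 (log2) and that of all probes was −0.13.

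**Figure D1:**
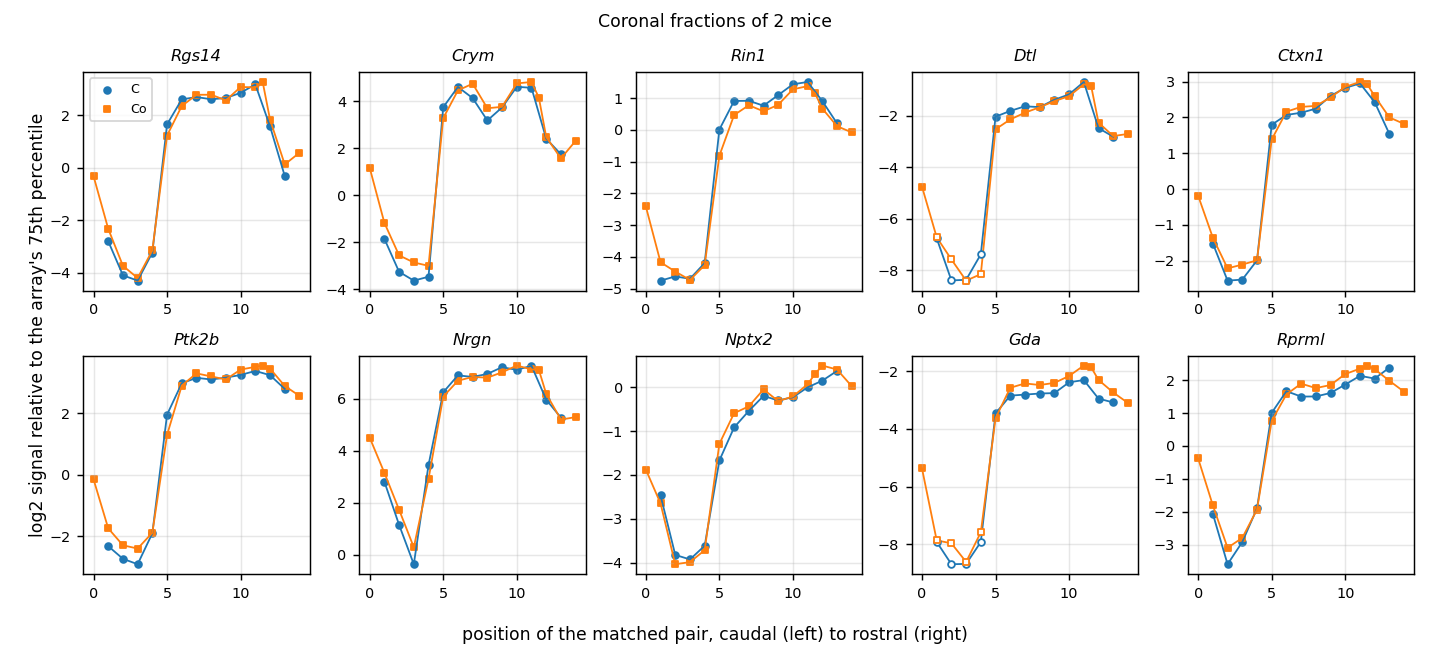
Log2 signal relative to the array's 75th percentile (vertical axis) of each member along the matched coronal positions (horizontal axis, 1 mm apart, caudal to rostral) in the mice C (circles) and Co (squares). Co1 at position 0, Co13 between 11 and 12 and Co16 at 14 have no partner; open symbols are not well above background. All 10 members are low at positions 1 to 4 and high from 5 onwards, and Co1 lies above Co2.

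Rgs14 was at −2.80, −4.10, −4.30 and −3.23 in C1 to C4 and at −2.33, −3.74, −4.20 and −3.15 in Co2 to Co5. In the rostral window it ranged from 1.58 to 3.18, so the groups did not overlap, and the mean difference was 6.20 in C and 6.04 in Co, a 69.7-fold ratio. Of the 8 members measured on both sides, Crym had the largest difference, 6.82 in C and 6.44 in Co (99.1-fold), with caudal values from −3.62 to −1.17 and rostral values from 2.41 to 4.82. Of the Ras and kinase genes, Rin1 differed by 5.67 in C and 5.32 in Co (45.0-fold). Ptk2b differed by 5.67 and 5.40 (46.5-fold). These 2 signaling genes had ratios close to each other.

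The synaptic genes Nrgn and Nptx2 behaved less alike. Nrgn differed by 5.14 in C and 4.86 in Co (32.0-fold), with caudal values spread widely from −0.37 to 3.44. Nptx2 had the smallest ratio of the members, 10.5-fold, with differences of 3.27 and 3.52. Ctxn1 differed 24.2-fold and Rprml 21.6-fold. Dtl and Gda were not well above background on any of the 8 caudal arrays, so that they have bounds there. Dtl was at least 70.2-fold higher rostrally, and Gda was at least 44.8-fold higher, where the dim side was set to the higher of its own signal and the lowest signal called well above background on that array. The measured differences were 6.19 for Dtl and 5.68 for Gda. These bounds depend on the background correction, as normexp with quantile normalization gave measured differences of 2.42 and 1.90.

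The step was concentrated between the pairs C4/Co5 and C5/Co6, where 10 of 10 members rose more than 2-fold in both mice, against 3.11% of probes. Among the 8 members measured on both sides, Crym rose the most, by 7.21 in C and 6.28 in Co over this 1 mm, or 107-fold, from −3.46 to 3.75 in C. Nptx2 rose by 1.95 and 2.43, the smallest step. Nrgn differed in timing: it already rose by 3.82 from C3 to C4 and by 2.63 from Co4 to Co5, before a further 2.80 and 3.17. Its largest rise came a fraction earlier in C, but not in Co. C1 to C4 filled a slide of their own. Co5 and Co6 lay on the same slide, and the step there was between 2.43 (Nptx2) and 6.28 (Crym).

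The lists of region markers moved with the step. The mean profile of 8 pallium and cortex genes, each centered on its mean over the fractions, rose from −2.29 in C4 to 0.41 in C5 and from −2.25 in Co5 to −0.25 in Co6. That of 7 cerebellar genes fell from 3.32 to 0.43 and from 3.42 to 1.35 at the same places. The part of either region's RNA in the step was not tested.

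Within the forebrain the members then took different courses. Among the paired fractions, 8 of 10 members peaked in both mice between the pairs C10/Co11 and C11/Co12, and 5 of them (Rin1, Dtl, Ctxn1, Ptk2b and Gda) peaked in the partners C11 and Co12. Crym dipped in the middle, to 3.19 in C8 between 4.61 in C6 and 4.62 in C10, and to 3.71 in Co9 between 4.75 in Co8 and 4.76 in Co11. The dip lay at the level where thalamic and hypothalamic markers were high (1.45 and 3.33 in C8), and their part in it was not tested. Nptx2 instead went from −0.54 in C7 to 0.37 in C13, and peaked in C13 and Co14. Rprml had its C maximum of 2.38 in C13 too, but lay at 1.98 in Co15 below 2.35 in Co12.

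At the olfactory end (C13 and Co15), where the 4 olfactory bulb markers averaged 5.18 and 5.06, Rgs14 had dropped to −0.31 and 0.13. Relative to the rostral window it differed by −2.91 in C and −2.56 in Co, a 6.65-fold lower signal. Crym was 4.77-fold lower, Nrgn 3.14-fold and Dtl 2.42-fold, each with both olfactory values below its 12 rostral values. Rin1, Ctxn1, Gda and Ptk2b were lower by smaller amounts, with mean differences from −0.85 to −0.43. Of these, Rin1, Ctxn1 and Ptk2b also had both olfactory values below all their rostral values, and Gda did not. The share of all probes with such a gap was not counted. Nptx2 was higher in both mice, by 0.56 and 0.48, and Rprml differed by 0.60 in C and −0.08 in Co. In all, 8 of 10 members were lower in both mice, against 33.1% of probes, and 1 was higher. C13 lay on another slide and scan day than C1 to C12. The C differences here and the peaks in C13 cannot be told apart from these. Co15 shared the scan day of the rostral Co fractions.

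**Figure D2:**
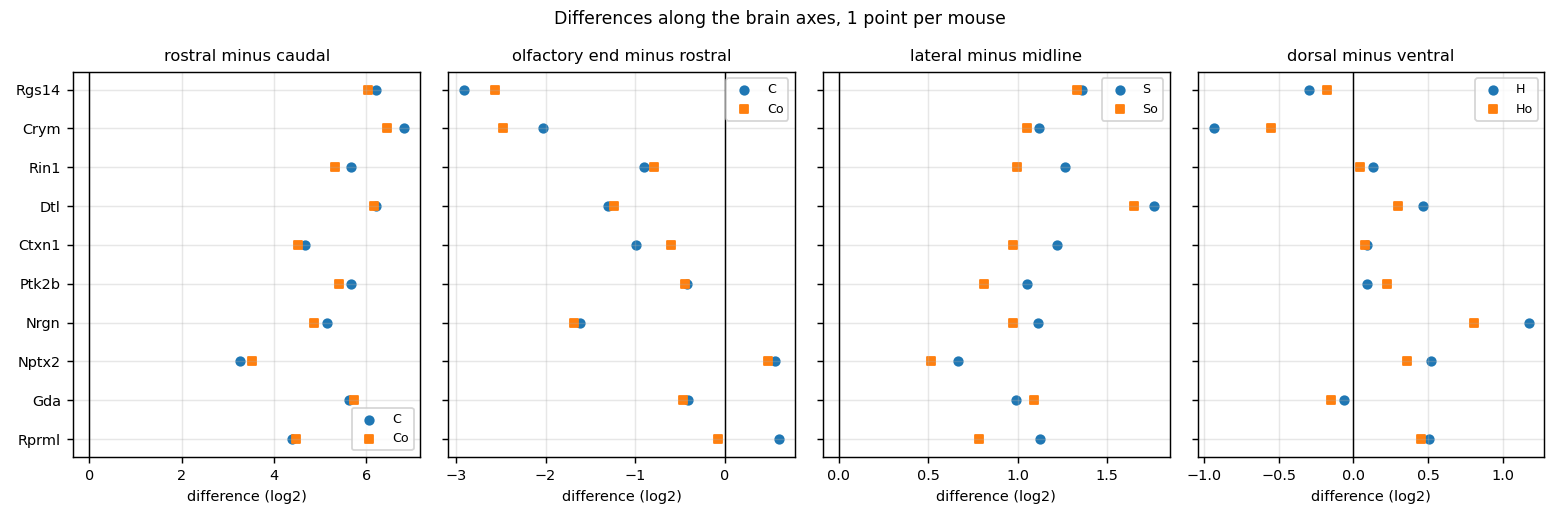
Differences between groups of fractions (log2, horizontal axis) for each member (vertical axis), with 1 point per mouse, along the coronal (C and Co), sagittal (S and So) and horizontal (H and Ho) series. Every member is above 0 for rostral minus caudal and for lateral minus midline, while olfactory end minus rostral and dorsal minus ventral spread to both sides of 0.

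From left to right, all 10 members were high at both sides of the brain and low near the midline. The lateral window is S1, S2, S8 and S9 with their So partners, and the midline window is S4 to S6 with theirs. Lateral values exceeded midline values more than 2-fold in both mice for 3 members (Rgs14, Crym and Dtl), against 0.514% of probes. All lateral values lay above all midline values for 10 of 10 members, against 4.48% of probes. Dtl had the largest difference, 1.76 in S and 1.65 in So, with lateral values from −1.66 to −0.34 and midline values from −2.78 to −2.38. Rgs14 ran 3.12, 2.62, 1.99, 1.68, 1.27, 1.19, 1.80, 2.34 and 2.87 from S1 to S9. Nptx2 had the smallest difference, 0.67 and 0.51, and its lowest So value, −0.82, lay off the midline in So8.

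The profiles were close to mirror images. The left minus right difference ran from −0.10 (Ptk2b) to 0.31 (Gda) over the members, with a median of 0.10. Gda was 0.46 higher on the left in S and 0.15 in So, and 0 of 10 members passed 2-fold in both mice, against 0.150% of probes. In both mice the left and right fractions compared lay on different slides, so side and slide cannot be told apart.

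**Figure D3:**
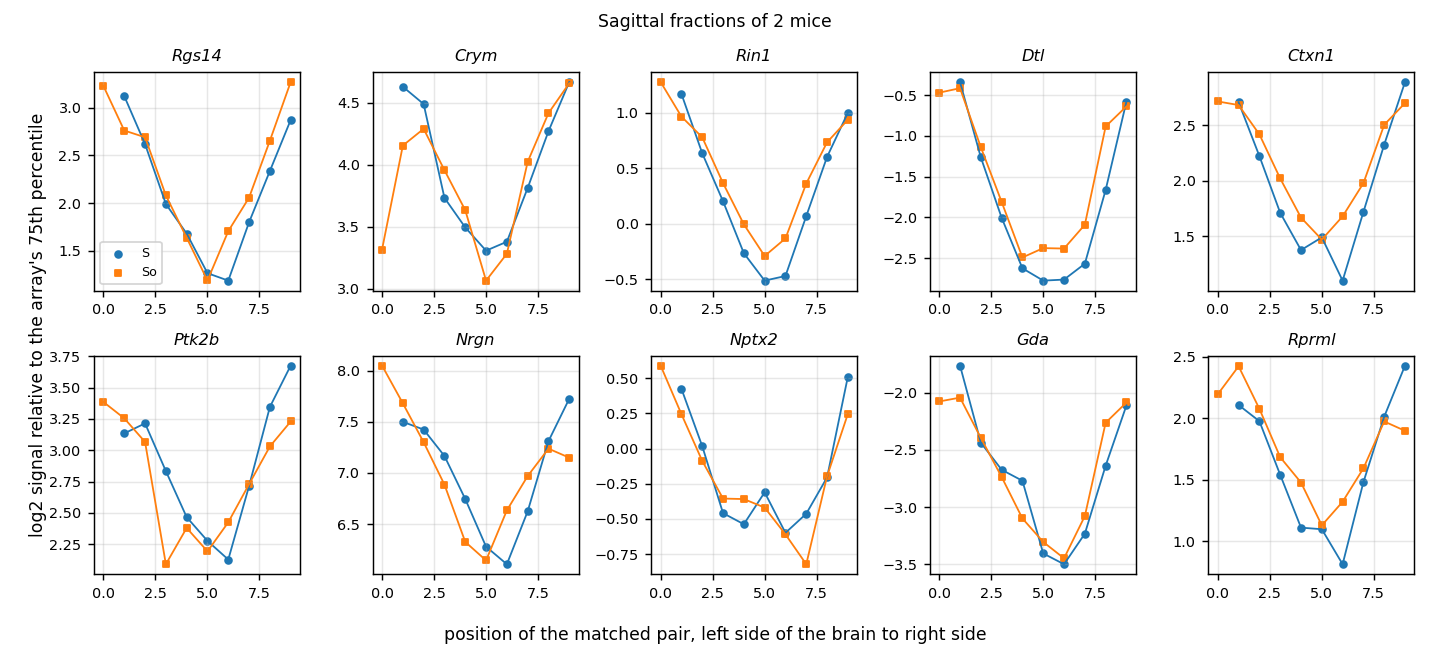
Log2 signal relative to the array's 75th percentile (vertical axis) of each member along the matched sagittal positions (horizontal axis, left to right) in the mice S (circles) and So (squares); position 0 is So1, which has no partner. The members are low at the middle positions and high towards the sides; the lowest So value lies at So8 for Nptx2 and at So4 for Ptk2b.

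From dorsal to ventral the members separated, and the differences were small. The dorsal window is H1 and H2 and the ventral window H5 and H6, with their Ho partners, and 0 of 10 members passed 2-fold in both mice, against 3.39% of probes. In both mice the dorsal and ventral windows lay on different slides, so region and slide cannot be told apart in the differences between them. Nrgn fell steadily, from 7.59 in H1 to 6.19 in H5 and from 7.36 in Ho2 to 6.36 in Ho6, with a mean dorsal minus ventral difference of 0.99. Rprml (0.48) and Nptx2 (0.44) were also higher dorsally. For these 3 genes every dorsal value lay above every ventral value, against 11.0% of probes. Crym ran the other way, at 3.36, 3.62, 3.72, 4.01, 4.20 and 4.67 from H1 to H6, and its dorsal minus ventral difference was −0.94 in H and −0.55 in Ho. Rin1, Ctxn1, Ptk2b and Gda differed by 0.08 to 0.16 in size between the windows. Their SD between paired horizontal fractions was 0.0855 (Rin1), 0.0823 (Ctxn1), 0.0751 (Ptk2b) and 0.2283 (Gda). Rgs14 and Gda were lowest in the middle fractions, at 1.83 and −3.10 in H3. Striatal markers rose along the same axis, from −1.31 in H1 to 1.76 in H6, and cortical markers fell from 1.30 to −0.16. Their part in these profiles was not tested.

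**Figure D4:**
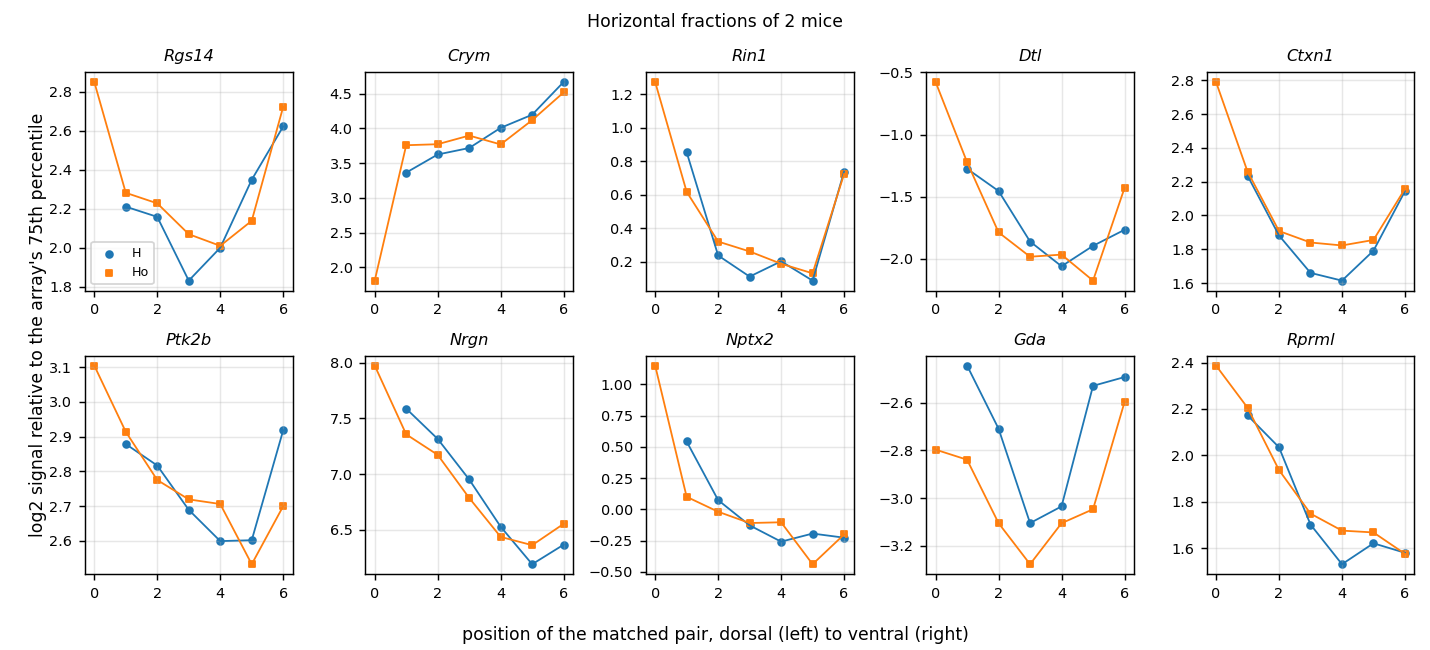
Log2 signal relative to the array's 75th percentile (vertical axis) of each member along the matched horizontal positions (horizontal axis, dorsal to ventral) in the mice H (circles) and Ho (squares); position 0 is Ho1, which has no partner. Nrgn falls and Crym rises towards the ventral side, and Crym is lowest in Ho1.

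The planes therefore contributed unequally to the choice of the genes. Ranked on the coronal pairs alone, the members stood between rank 1 (Rgs14) and rank 26 (Gda) of the 15520 genes. On the sagittal pairs they stood between rank 79 (Gda) and 934 (Ptk2b), and on the horizontal pairs between 229 (Nrgn) and 6328 (Gda).

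The fractions Co1, Co13, Co16, So1 and Ho1 had no partner and did not enter the choice of the members. Each is a single array, so their differences have no replicate check. Co13, a rostral fraction, exceeded Co1, the most caudal one, more than 2-fold for 10 of 10 members, against 8.33% of probes. The difference was largest for Dtl (3.90, from −4.75 to −0.85, or 14.9-fold) and smallest for Nptx2 (2.18, or 4.54-fold). Rgs14 was at −0.32 in Co1 and 3.27 in Co13, a 12.0-fold ratio. Co16, at the olfactory end, exceeded Co1 more than 2-fold for 8 of 10 members, against 9.81% of probes. The exceptions were Rgs14 (1.85-fold) and Nrgn (1.73-fold), which are among the genes that drop towards the olfactory bulb. All 4 slides of Co hold neighboring fractions, and Co13 and Co16 lay on another slide than Co1.

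Co1 stood apart from the fractions next to it. In Co1, 10 of 10 members were above the mean of Co2 to Co4, against 58.8% of probes, by 1.68 (Nptx2) to 3.37 (Crym), and Crym was at 1.18 in Co1 against −1.17 in Co2. In the other coronal mouse, C1 was higher than the mean of C2 and C3 for 7 of the 8 members that were well above background there, against 56.3% of probes, by 0.50 (Ptk2b) to 2.42 (Nrgn), and Rin1 differed by −0.10. The other 2, Dtl and Gda, were not well above background in C1 to C3 or in Co2 to Co4. In Co1, 7 of 8 pallium genes were above the mean of Co2 to Co4, with a median difference of 0.90. All 6 hypothalamic genes were above it, by 0.97 to 3.69, and 0 of 7 cerebellar genes were, with differences of −6.10 to −2.47. Hindbrain markers averaged 3.21 in Co1, the highest of the Co series. The part of these markers in the values of Co1 was not tested.

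In Ho1, the most dorsal fraction, Crym parted from the rest. It was at 1.81 against 3.76 in Ho2, a 3.86-fold lower signal, while the 9 other members were higher than in Ho2, against 59.5% of probes. Of these, Nptx2 passed 2-fold (1.15 against 0.10). Gda (0.04), Rprml (0.18) and Ptk2b (0.19) were higher by less than their SD between paired fractions of all planes (0.23, 0.19 and 0.21). Among all probes, 6.26% were more than 2-fold higher in Ho1 than in Ho2 and 3.87% more than 2-fold lower. In So1, the outermost left fraction, 6 of 10 members were higher than in So2, against 46.1% of probes. Crym was at 3.32 against 4.16, Rprml at 2.20 against 2.42, and Nrgn at 8.05 against 7.68. Dtl, Gda, Ctxn1 and Ptk2b differed by less than their spread between paired fractions. At the other ends of the sagittal series Crym was among its highest values, with 4.63 in S1, 4.67 in S9 and 4.66 in So10. By its title S1 was the 2nd fraction of its series, and it is the partner of So2. So1 therefore has no matching fraction in S. Between So1 and So2, 0 of 10 members passed 2-fold, against 6.49% of probes. Oligodendrocyte markers were lower in Ho1 than in Ho2 (−1.52 against −0.58) and in So1 than in So2 (−1.26 against −0.56), and cerebellar markers were at −2.25 in Ho1 against 1.80 in Ho2. Hypothalamic markers were higher in Ho1 (0.22 against −1.61) and in So1 (0.78 against −1.73), and hippocampal markers were lower (−0.47 against 0.52 and −0.25 against 0.32). Their part in the values was not tested.

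The variance between paired fractions is the denominator of F, so a low SD was favored by the choice of the members and is given as a description. The SD between the 2 mice ran from 0.14 (Nptx2) to 0.25 (Crym) with a median of 0.20, against spans over the 61 fractions of 5.19 (Nptx2) to 8.45 (Crym). The median SD of all detected probes was 0.30. The largest single disagreement among the members was for Rin1 in the pair C5 and Co6, at 0.01 and −0.81, which is on the step. Mean differences between mice stayed small, with Gda the largest, 0.31 higher in Co than in C and 0.28 lower in Ho than in H.

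Over all 61 fractions the members were correlated with each other at a median Pearson's r of 0.97, from 0.85 (Crym and Nptx2) to 0.99 (Rin1 and Ctxn1), and 43 of 45 gene pairs were above 0.9. The fractions share mice, slides and the caudal step, and r describes these fractions without a test. Without the 9 caudal fractions C1 to C4 and Co1 to Co5, the median r over the other 52 was 0.65 and 1 gene pair, Rin1 and Ctxn1, stayed above 0.9 (0.94). There Crym and Nptx2 had an r of −0.27, and Crym had a median r of 0.38 with the other members. Rgs14 then lay closest to Dtl (0.85), and Nptx2 lay closest to Rprml (0.80).

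**Figure D5:**
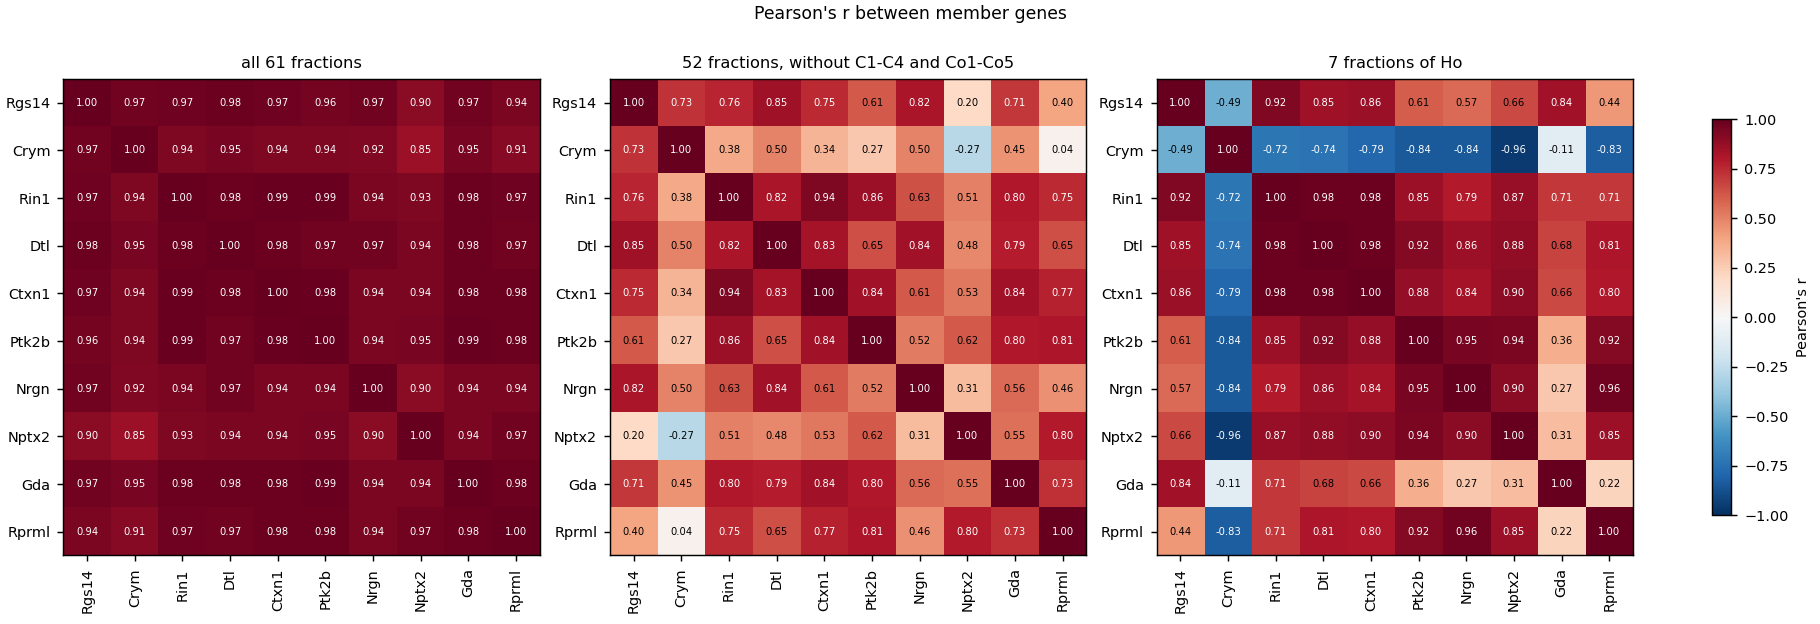
Pearson's r between each pair of members (rows and columns; color scale from −1 to 1) over all 61 fractions, over 52 fractions without C1 to C4 and Co1 to Co5, and over the 7 fractions of Ho. All values are at 0.85 or above in the first panel, and Crym is negative with every other member in the last, where its r with 5 of them (Rgs14, Rin1, Dtl, Ctxn1 and Gda) is positive once Ho1 is left out.

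By series, the median r was 0.97 in C and in Co, 0.94 in S, 0.89 in So, 0.80 in Ho and 0.55 in H. In Ho, with 7 fractions, Crym was negatively correlated with the 9 others, down to −0.96 with Nptx2. For 5 of the 9 this rests on Ho1. Without that fraction its r turned from −0.49 to 0.78 with Rgs14 and was positive with Gda (0.67), Rin1 (0.44), Ctxn1 (0.27) and Dtl (0.12). It stayed negative with Rprml (−0.65), Nptx2 (−0.59), Nrgn (−0.52) and Ptk2b (−0.47). In H, with 6 fractions, its r with Nrgn was −0.88 and with Rgs14 0.66.

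The genes with the most similar profiles over the 61 fractions were partly members themselves. For the mean profile of the members, the nearest were Gda, Dtl and Ctxn1 (0.99 each), and 151 of 15520 genes, 0.973%, had an r above 0.9. Outside the members, Rasl10a (0.99) and Mas1 (0.98) were nearest to Rgs14, St6galnac5 (0.97) and Fezf2 (0.96) to Crym, and Emx2 (0.98) was among the nearest to Rin1. Kcnv1 (0.99) was nearest to Dtl. Icam5, a cell adhesion protein of telencephalic dendrites, was nearest to Ptk2b (0.99) and Gda (0.99) and second to Ctxn1 (0.99). Kcnj4 was nearest to Rprml (0.99), Rasl10a was also near Nrgn (0.96), and Fam163b (0.96) and Kcnf1 (0.96) followed Rprml for Nptx2. Of the 5 genes just outside the choice, Kcnj4 had a rostral minus caudal difference of 6.93 and Camkv one of 3.41.

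The members' profiles were set against the region markers. The r below take in the arrays that chose the members, so they describe the label of forebrain genes and do not test it. Their r with the pallium and cortex list ran from 0.87 (Nptx2) to 0.96 (Nrgn), with the hippocampus list from 0.61 to 0.86, and with the striatum list from 0.54 to 0.72. With the cerebellum and hindbrain lists it was negative for all 10, from −0.66 to −0.43. With markers of other forebrain regions the r was lower: 0.33 to 0.40 with the hypothalamus list, 0.06 to 0.24 with the thalamus list and 0.09 to 0.36 with the olfactory bulb list. Without the caudal fractions, Nrgn kept an r of 0.94 with the pallium list and Dtl one of 0.85, whereas Nptx2 had 0.26 and Crym 0.47. The r with the thalamus list was then negative for all 10, from −0.69 to −0.01. With the hippocampus list the r then ran from −0.38 (Nptx2) to 0.69 (Crym, its highest with any list). With the striatum list it ran from −0.20 (Nptx2) to 0.47 (Crym). Nptx2 had −0.82 with the oligodendrocyte list, and Rprml −0.73.

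Relatives and partners of the members moved in both directions. Of 58 genes listed, 56 had a probe, and 46 of the 56 varied over the pairs (82.1%), against 61.3% of all detected probes (limma's moderated F test, Benjamini-Hochberg adjusted). Of the 46, 26 were higher rostrally in both coronal mice, 13 were higher caudally and 7 differed in direction between the mice. Directions were not counted over all called probes, so these counts and those by list below have no background share. The median rostral minus caudal difference of the 56 was 0.10, against −0.13 for all detected probes.

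The nearest in size were Camk2a and Rprm. Camk2a, a calmodulin-dependent kinase of excitatory synapses, was 13.6-fold higher rostrally (adjusted p = 1.89e-11 over the pairs). Rprm, the relative of Rprml, was 11.2-fold higher (adjusted p = 1.37e-14). Of the Nptx2 partners, the pentraxin receptor Nptxr was 3.34-fold higher rostrally, and Nptx1 was lower, by −0.80. The AMPA receptor subunits Gria2 (1.48) and Gria3 (0.96) were higher rostrally, and Gria4 was 3.48-fold lower.

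For Rgs14, its relative Rgs12 was 2.87-fold higher rostrally, and its G protein targets Gnai1 (−0.27) and Gnai2 (−0.20) did not pass the test (adjusted p = 0.63 and 0.10). The Rin1 relatives Rin2 and Rin3 differed by 0.10 each, and Rin3 did not pass (adjusted p = 0.40). Of the Ptk2b partners, Ptk2, the focal adhesion kinase, was 2.14-fold higher rostrally and Pxn 2.13-fold lower. The thyroid hormone genes listed with Crym were higher rostrally for 4 of 5, with 1.26 for the receptor Thrb and 0.95 for the deiodinase Dio2. None of the 7 ligase genes listed with Dtl was called higher rostrally in both mice, and Cdt1, a substrate of the ligase, was 2.03-fold lower. None of the 5 purine and synaptic partners of Gda was either, and 4 were called lower in both mice.

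Dtl, Gda and Ptk2b had another probe on the array. For Ptk2b the difference was 5.12 (against 5.54) and for Gda it was at least 35.9-fold. The other Dtl probe was dimmer and gave at least 7.26-fold, with 3.21 measured, so the size of the Dtl difference depends on the probe.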

How the data were processed

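Total RNA of 61 fractions of 6 brains was measured on 61 one-color Agilent arrays. The authors deposited the processed signal intensity of each spot (Agilent Feature Extraction 9.1.3.1, background-subtracted, not normalized between arrays) and a table of intensities normalized per array in GeneSpring. Each column of that table equals the spot signals divided by a constant of the array. Its column medians were 1.76 to 1.98 on a linear scale, and 0 columns were unused.

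Here, the log2 intensity of a probe's spots was averaged (41174 probes) and the array's 75th percentile subtracted (739.7 to 1971.3 units). No value was saturated, and 57.9% to 73.1% of probes per array were well above background. Probes detected on at least 1 array (36573) were tested with limma 3.58.1 (R 4.3.3) over the 28 pairs of matched fractions, with 27 and 28 degrees of freedom and Benjamini-Hochberg adjustment at 0.05. The fit was tested on simulated data. RefSeq accessions named 22951 probes, and names and sequences come from RefSeq (GRCm38.p6). Of 2299 spot values marked as outliers, 2235 were kept because the probe had no other spot, and none belonged to a member. Other tables were made with Python 3.11.15, numpy 2.4.6, pandas 2.3.3 and matplotlib 3.10.9.

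The 5 fractions without a partner were left out of the fit. The fractions of a mouse lie on several of 16 slides on which neighboring fractions mostly lie together, and the 5 scan days divide the series. The number of mice (2 per plane) limits the precision. The same-numbered samples are not repeats, but the fractions of a series come from 1 mouse: deviations from the pair mean had a median r of 0.278 between fractions of the same plane and −0.0255 between planes. The mouse was therefore also entered as a block.

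The members, gene lists, motifs and windows were chosen with earlier results of these data known. Named are the members, their other probes, the 5 genes next in F, the 3 genes with the highest r to each member, and the genes of the lists, of which some are not reported here singly. Alternatives covered moderation, blocks, scaling, background correction, filters, windows, probes, planes and left-out arrays and mice. The removal of probes with outlier spots, of the caudal fractions and of Ho1, and the block with 1 contrast per plane, were added after seeing the data.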

Additional observations from a re-analysis of the deposited data

Results flagged for a closer look

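Each member was examined in the 4 series of 6 to 10 fractions, 40 sets in all, for a fraction far from the others of its series; chance alone flags about 1 in 20 such sets, and 2 were found. The fractions of a series are different regions and not replicates. Crym in Ho1 (1.81) lay far below the other 6 fractions of Ho, which ran from 3.76 to 4.52. Nptx2 in Ho1 (1.15) lay far above the others, of which the highest was 0.10 in Ho2.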

How the results depend on the processing

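The number of probes that varied over the pairs was 22417. It was 14773 with only probes well above background on every array, and 13772, 4600 and 2410 on the coronal, horizontal and sagittal pairs alone, which hold fewer pairs. Leaving out an array in turn gave 21561 to 22767. Of the 10 members, 6 were among the 10 genes with the largest F with the replicate block (the mouse; 23459 probes called), which also takes up differences between planes, 6 with a replicate block of 1 contrast per plane (31440 probes called), 6 with the scan day as a block, 3 with the slide as a fixed block, and 6 with normexp and quantile normalization. The coronal pairs alone gave 4, the horizontal 0 and the sagittal 0. Without the C mouse it was 5, without the Co mouse 4, and with single arrays left out 6 to 10, with 6 without C1 or Co2. The relatives called numbered 45 to 47 of 56 with an array left out. The median rostral minus caudal difference of the members was 5.52. It was 4.23 with normexp and quantile normalization and 5.06 with the next brightest probe, and 5.46 to 5.59 with an array left out. Under normexp, the difference was 2.42 for Dtl and 1.90 for Gda, the 2 genes not well above background caudally. With an array left out, the median dorsal minus ventral difference was 0.04 to 0.24, lateral minus midline 1.01 to 1.12, and olfactory end minus rostral −0.85 to −0.78. The median r between members was 0.80 as Spearman's rho and 0.65 without the caudal fractions. The direction of these median differences was not reversed; left-out arrays were run for the medians and not for the differences of single members. Reversed were the r of Crym with Nptx2 without the caudal fractions (−0.27) and, in Ho without Ho1, the r of Crym with Rgs14 (0.78), Gda (0.67), Rin1 (0.44), Ctxn1 (0.27) and Dtl (0.12). The cause of the changes was not tested. With the authors' table and with scaling to the median, the 40 differences of single members moved by less than the SD between paired fractions.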
